A study of Mus musculus with 2 samples.

Results

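The mir-17-92 and mir-106b-25 clusters were examined as whole loci in microRNA-seq of mouse hippocampus. All 9 genes of both clusters were taken by symbol, without regard to their level: Mir17, Mir18, Mir19a, Mir20a, Mir19b-1 and Mir92-1 of mir-17-92, and Mir106b, Mir93 and Mir25 of mir-106b-25. They are 9 of the 2202 microRNA genes with counts. The RNA came from hippocampus of female B6CASTF1/J mice, first-generation hybrids of the C57BL/6J and CAST/EiJ inbred strains, at 10 days of age. The mice carried no labelled mutation and received no labelled treatment. The labels give the tissue as a layer of hippocampus and form 1 group of 2 biological replicates, with a different set of 3 females named for each under a shared donor entry. The libraries hold RNA below 30 nt. Reads on the strand of each gene (sense counts) numbered 5479267 in replicate 1 and 3563226 in replicate 2. Levels are counts per 1000000 of these sense counts (CPM). With a single group no conditions could be compared, so the genes were compared with each other within each library and then between the libraries.

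Each cluster is a polycistron, which means that several hairpins lie in 1 primary transcript and are cut from it by Drosha and then Dicer. The seed, bases 2 to 8 of the mature microRNA, sets most of its target choice, so members with the same seed act on overlapping sets of messenger RNAs. Members of mir-17-92 are known from proliferating progenitors, where they repress Bcl2l11 and cell cycle inhibitors such as Cdkn1a, and in developing brain they act in neural progenitors and in axon growth. The mir-106b-25 cluster is a related cluster inside Mcm7, a gene for a subunit of the replicative helicase, and it has been described in adult neural stem cells.

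The main mature arms are shown because the comparison within each cluster is made by seed. Sequences are from the RefSeq table of build GRCm38.p6, in which all 9 members were found, are written 5′ to 3′, and have the seed in capitals. The first 4 share the miR-17 seed, the next has the miR-18 seed, the following pair has the miR-19 seed and the last pair has the miR-92 seed.
miR-17-5p of Mir17: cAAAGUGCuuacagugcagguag
miR-20a-5p of Mir20a: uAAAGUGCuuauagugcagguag
miR-106b-5p of Mir106b: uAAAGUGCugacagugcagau
miR-93-5p of Mir93: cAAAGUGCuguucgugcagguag
miR-18a-5p of Mir18: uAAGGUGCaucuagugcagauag
miR-19a-3p of Mir19a: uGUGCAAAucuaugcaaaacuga
miR-19b-3p of Mir19b-1: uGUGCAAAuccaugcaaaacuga
miR-92a-3p of Mir92-1: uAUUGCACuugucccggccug
miR-25-3p of Mir25: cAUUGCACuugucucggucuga

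Members of 1 seed group differ outside the seed. Counted from the 5′ end, with the base of miR-17-5p first, miR-20a-5p differs from miR-17-5p at 2 of 23 positions, C1U and C12U, and miR-93-5p differs from it at 4, U10G, A11U, C12U and A13C. The first 21 bases of miR-106b-5p differ from those of miR-17-5p at 3 positions, C1U, U10G and G20A. With the base of miR-19a-3p first, miR-19b-3p differs from miR-19a-3p at 1 position, U11C. The deposited counts are given per gene and not per arm, so a seed group here is a group of genes named by the seed of the arm known as the main one, and reads of the other arm are counted with it. The main arms are all 21 to 23 nt long. In small RNA sequencing a read covers a short RNA and not a fragment of a longer one. Levels of different genes were therefore compared as CPM without division by gene length. How evenly library preparation recovered different sequences was not measured. Orders, shares and ratios between genes are thus those of counts, and neither the SD between libraries nor an interval from counts covers this.

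The mir-17-92 genes lie on the plus strand of chromosome 14 (GRCm38, mm10). The 6 hairpins run from 115043671 to 115044506, with gaps of 35 to 96 nt between neighbours, within an exon of Mir17hg, a lincRNA gene (ENSMUSG00000089726.2, 115042879 to 115046727). In order of transcription they are Mir17 (ENSMUSG00000065508.1), Mir18 (ENSMUSG00000065403.1), Mir19a (ENSMUSG00000065416.1), Mir20a (ENSMUSG00000065442.1), Mir19b-1 (ENSMUSG00000076256.1) and Mir92-1 (ENSMUSG00000076062.1). The mir-106b-25 genes lie on the minus strand of chromosome 5, from 138165321 to 138165818, within Mcm7 (ENSMUSG00000029730.16, 138164583 to 138172422). Mir106b (ENSMUSG00000065514.1) comes first and lies in introns only, while Mir93 (ENSMUSG00000065527.1) and Mir25 (ENSMUSG00000065394.1) follow and each overlap an exon of 1 annotated Mcm7 transcript and lie in an intron of 2 others. None of the 9 genes had an antisense count in either library.

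In reads with a unique place, the smaller cluster gave slightly more counts than the larger one in both libraries. Multimapping reads are in no gene count, and the main arms of Mir19b-1 and Mir92-1 each lie in a second gene, so the total of mir-17-92 leaves out an unknown number of reads and its order against mir-106b-25 holds for the counted reads only. The mir-17-92 cluster held 32016 counts, or 0.584% of sense counts, in replicate 1 and 22425 counts, or 0.629%, in replicate 2. The mir-106b-25 cluster held 37201 counts, or 0.679%, in replicate 1 and 25148 counts, or 0.706%, in replicate 2. The means were 0.607% ± 0.0318 for mir-17-92 and 0.692% ± 0.0190 for mir-106b-25 (SD, n = 2 each), and the ranges of the 2 clusters did not overlap. The log2 ratio of mir-17-92 to mir-106b-25 within a library was -0.22 in replicate 1 and -0.17 in replicate 2, with a mean of -0.19 ± 0.036 (SD, n = 2). This order rested on 1 gene of each cluster, because without Mir17 and Mir93 the log2 ratio was 0.57. Per member the log2 ratio was -1.19, which follows from the ratio of the totals and the number of genes in each cluster. An exact two-sided permutation test of 2 values against 2 cannot give a p below 0.333, and pairing within the 2 libraries leaves fewer arrangements. Orders among members are therefore given as values and ranges, without a p. In this bulk tissue, more cells that make a microRNA and more of it per cell cannot be told apart.

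Within mir-17-92, Mir17 was the most abundant gene in reads with a unique place. It had 20468 counts, or 3736 CPM, in replicate 1 and 12751 counts, or 3578 CPM, in replicate 2. The libraries were close for this gene, with a mean of 3657 ± 111 CPM (SD, n = 2). Its seed partner Mir20a had 4263 counts, or 778 CPM, in replicate 1 and 3273 counts, or 919 CPM, in replicate 2. Mir17 therefore stood 4.80-fold above Mir20a in replicate 1 (95% counting interval 4.65 to 4.96) and 3.90-fold in replicate 2 (3.75 to 4.05). All intervals here are exact Clopper-Pearson intervals, and they leave out every error but that of counting, because no molecular identifiers separate molecules from PCR copies. The 2 genes of the miR-17 seed together made up 77.2% of the cluster's counts in replicate 1 (76.8% to 77.7%) and 71.5% in replicate 2 (70.9% to 72.0%), so the libraries differed by more than counting error.

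In reads with a unique place, Mir92-1, the last hairpin, was the second gene of the cluster by level. Its main arm also lies in Mir92-2, so its rank and its ratio to Mir17 are not determined beyond such reads. Mir92-1 had 6032 counts, or 1101 CPM, in replicate 1 and 5754 counts, or 1615 CPM, in replicate 2. The SD of 363 CPM around its mean of 1358 CPM (n = 2) was the widest of the 9 members. It held 18.8% of the cluster's counts in replicate 1 (95% interval 18.4% to 19.3%) and 25.7% in replicate 2 (25.1% to 26.2%). Mir17 was 3.39-fold above Mir92-1 in replicate 1 and 2.22-fold in replicate 2. Mir18, the only member with the miR-18 seed, had 1246 counts, or 227 CPM, in replicate 1 and 641 counts, or 179.9 CPM, in replicate 2. It held 3.89% of the cluster in replicate 1 and 2.86% in replicate 2, and lay 16.4-fold and 19.9-fold below Mir17 in replicates 1 and 2.

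The miR-19 genes, which in mouse lymphoma models carry much of the oncogenic activity of the cluster, were nearly without counts. Mir19a had 1 count in replicate 1 and 2 counts in replicate 2, or 0.183 and 0.561 CPM. Mir19b-1 had 6 and 4 counts, or 1.10 and 1.12 CPM. Both genes together made up 0.0219% of the cluster in replicate 1 (95% interval 0.00879% to 0.0450%) and 0.0268% in replicate 2 (0.00982% to 0.0582%). The ratio of Mir17 to Mir19a was 20468 in replicate 1 (counting interval 3673 to 808482) and 6376 in replicate 2 (1765 to 52650.2), and that of Mir17 to Mir19b-1 was 3411 (1567 to 9297) and 3188 (1245 to 11701). Mir19a and Mir19b-1 lie between Mir18, Mir20a and Mir92-1 on the same annotated exon, so low and high counts of reads with a unique place alternated there. The main arm of Mir19b-1 also lies in Mir19b-2, and multimapping reads are in no gene count. The low count of Mir19b-1 is therefore no measure of its main arm, and an alternation of levels along the transcript was not shown. The arms of the miR-19 seed had 34.8% (Mir19a) and 39.1% (Mir19b-1) G and C bases, against 39.1% in Mir20a and 43.5% to 57.1% in the remaining members of the cluster. The part of base composition in these counts was not tested.

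**Figure D1:**
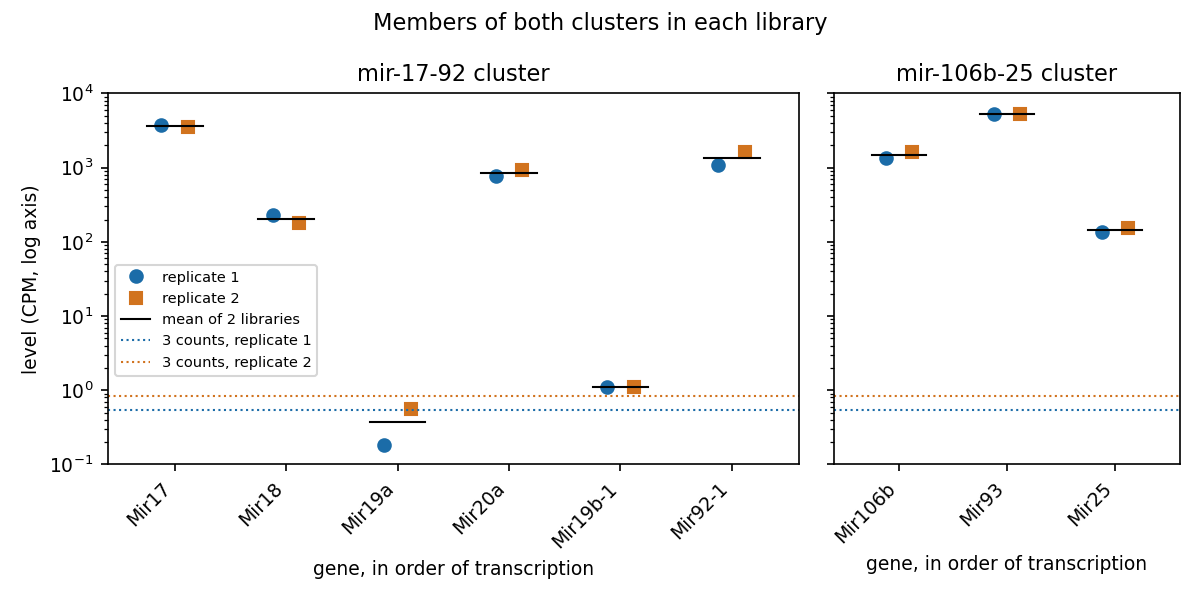
Level of each member in CPM on a log axis, with a circle for replicate 1, a square for replicate 2 and a bar for the mean of the 2 libraries; dotted lines mark the level of 3 counts. In reads with a unique place, Mir17 and Mir93 lead their clusters at 3657 and 5301 CPM, and Mir19a and Mir19b-1 lie near the level of 3 counts.

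In mir-106b-25 the middle hairpin led. Mir93 had 29104 counts, or 5312 CPM, in replicate 1 and 18849 counts, or 5290 CPM, in replicate 2. In reads with a unique place, its mean of 5301 ± 15.4 CPM (SD, n = 2) was the highest of the 9 members, and it ranked 38 among all microRNA genes. Mir106b had 7351 counts, or 1342 CPM, in replicate 1 and 5756 counts, or 1615 CPM, in replicate 2. Mir93 was 3.96-fold above Mir106b in replicate 1 (95% interval 3.86 to 4.06) and 3.27-fold in replicate 2 (3.18 to 3.37). Mir25, of the miR-92 seed, had 746 counts, or 136 CPM, in replicate 1 and 543 counts, or 152 CPM, in replicate 2, so Mir93 stood 39.0-fold above it in replicate 1 and 34.7-fold in replicate 2.

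The miR-17 seed held 98.0% of the mir-106b-25 counts in replicate 1 (95% interval 97.8% to 98.1%) and 97.8% in replicate 2 (97.7% to 98.0%). Mir25 supplied the remainder, 2.08% ± 0.109 (SD, n = 2), while its seed counterpart Mir92-1 held 22.2% ± 4.82 of mir-17-92. The shares of the miR-92 seed in the 2 clusters thus did not overlap between libraries. In reads with a unique place, Mir92-1 exceeded Mir25 8.09-fold in replicate 1 (7.49 to 8.74) and 10.6-fold in replicate 2 (9.70 to 11.6). Over the 9 genes, the miR-17 seed made up 86.9% ± 2.12, the miR-92 seed 11.5% ± 2.44, the miR-18 seed 1.57% ± 0.320 and the miR-19 seed 0.0114% ± 0.00177 of the counts (SD, n = 2). Mir93 and Mir17 alone gave 40.8% ± 1.72 and 28.2% ± 1.96 of the counts of both clusters.

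**Figure D2:**
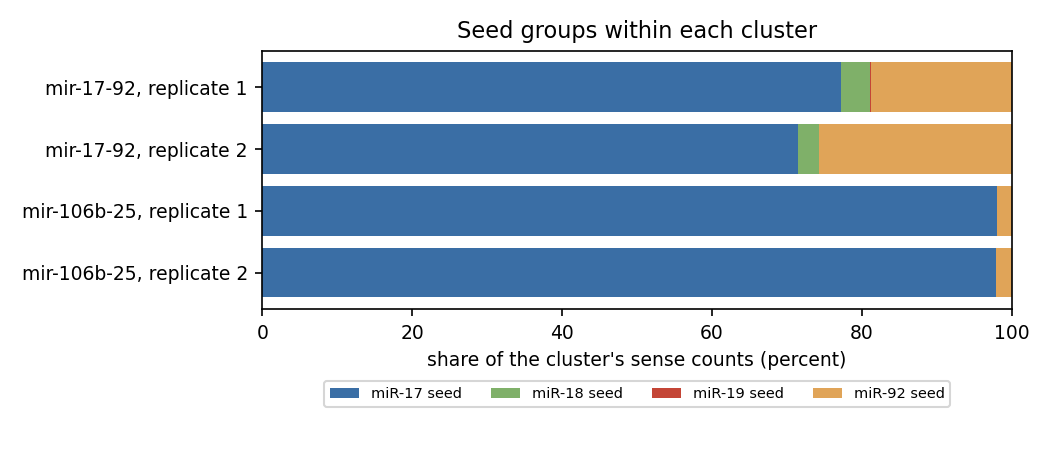
Share of each seed group in the sense counts of its cluster, in percent, for each library. The miR-17 seed takes 77.2% and 71.5% of mir-17-92 and 98.0% and 97.8% of mir-106b-25 in replicates 1 and 2, and the miR-19 seed is barely visible.

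From high to low, the mean levels in reads with a unique place ran Mir93, Mir17, Mir106b, Mir92-1, Mir20a, Mir18, Mir25, Mir19b-1 and Mir19a. The same order was found in each library. The places of Mir92-1 and Mir19b-1 leave out multimapping reads of their main arms and are not determined beyond the counted reads. Mir106b and Mir92-1 were not separated, since their ratio was 1.22 in replicate 1 and 1.00 in replicate 2 (95% interval 0.964 to 1.04) and their ranges overlapped. The other neighbours had ranges that did not overlap, although the ratio of Mir18 to Mir25 was 1.67 in replicate 1 and 1.18 in replicate 2, and the 2 miR-19 genes rest on 1 to 6 counts. Among ratios between genes of the same seed in different clusters, that of Mir92-1 to Mir25 had counting intervals that did not overlap between libraries, as given above. The ratio of Mir17 to Mir93 was 0.703 in replicate 1 (95% interval 0.691 to 0.716) and 0.676 in replicate 2 (0.661 to 0.692). That of Mir20a to Mir106b was 0.580 (0.558 to 0.602) and 0.569 (0.545 to 0.594). Intervals that overlap, as these do, do not show that a ratio was equal in both libraries, and this was not tested.

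Of all genes in the RefSeq table, 19 have an arm with one of the 4 seeds, and 10 of them lie outside the 2 clusters. The third paralogous cluster, mir-106a-363 on chromosome X, holds 6 of these, and 4 of the 6 had at least 10 counts in each library. Mir106a had 48 and 34 counts, Mir20b 50 and 32, Mir92-2 109 and 86, Mir363 55 and 22, Mir18b 3 and 0 and Mir19b-2 2 and 0 counts in replicates 1 and 2. In reads with a unique place, the whole X-linked cluster reached 48.8 ± 0.0728 CPM (SD, n = 2), and its range lay below both other clusters. The mir-17-92 cluster stood at 6068 ± 318 CPM and mir-106b-25 at 6924 ± 190 CPM. The main arms of Mir92-2 and Mir19b-2 also lie in Mir92-1 and Mir19b-1. The X-linked total thus leaves out an unknown number of multimapping reads too, and this order holds for the counted reads only. Mir17 and Mir106a, whose main arms differ only by U10A (base of miR-17-5p first), had 3657 ± 111 and 9.15 ± 0.553 CPM. Cluster members therefore held 99.8% of the counts of all miR-17 seed genes in each library, and Mir6383, a further gene with that seed, had no count, as had Mir367 of the miR-92 seed. Taken as 3 counts of the library, the limit that 0 counts allow is 0.548 CPM for replicate 1 and 0.842 CPM for replicate 2, in reads with a unique place.

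In reads with a unique place, the miR-92 seed differed from the miR-17 seed in this respect. Mir92b (ENSMUSG00000076255.2, chromosome 3, 89227116 to 89227198, minus strand), a gene of that seed outside all 3 clusters, had 32172 counts, or 5872 CPM, in replicate 1 and 28544 counts, or 8011 CPM, in replicate 2. It held 81.4% ± 0.348 of the counts of all miR-92 seed genes (SD, n = 2), against 17.6% ± 0.496 for Mir92-1 and Mir25 together. The main arm of Mir92-1 also lies in Mir92-2, and its multimapping reads are in no gene count. That of Mir92b lies in no other microRNA gene. These shares, and the lead of Mir92b, are therefore not determined beyond reads with a unique place. Mir32, in the same seed group, stood at 58.2 ± 6.97 CPM. The mature arm of Mir92b is shown for comparison with miR-92a-3p above, from which its first 21 bases differ at U10C and G21C (base of miR-92a-3p first).
miR-92b-3p of Mir92b: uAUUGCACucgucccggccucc

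**Figure D3:**
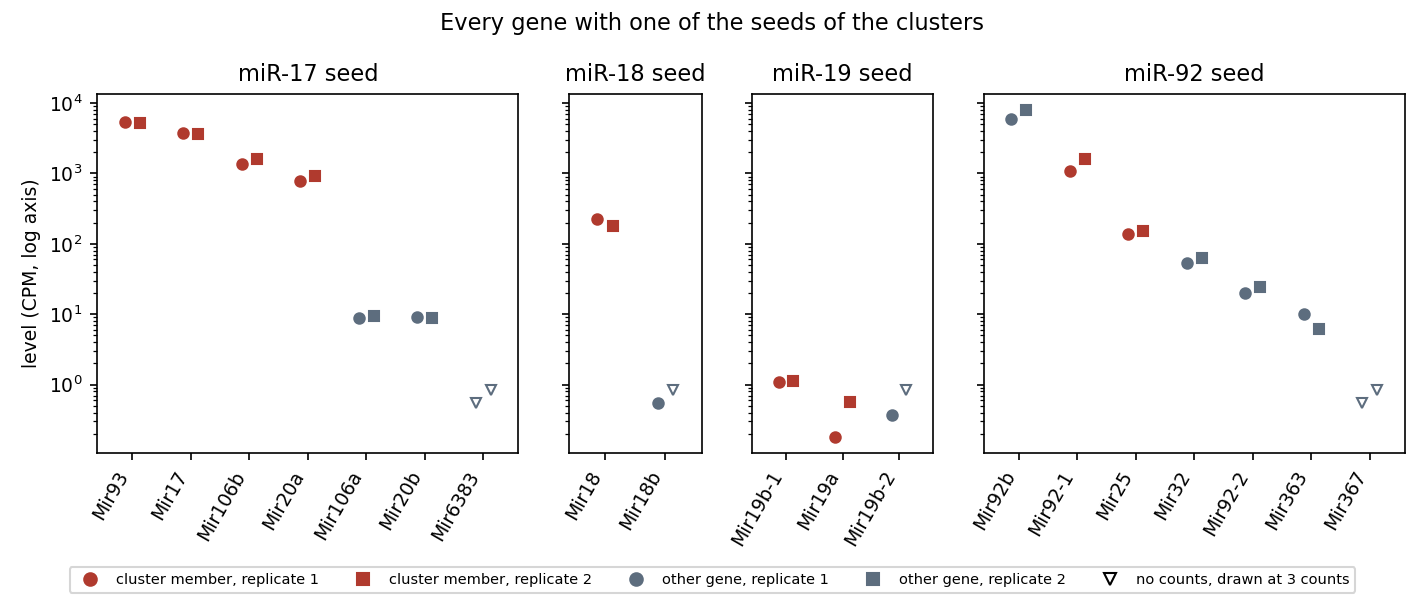
Level in CPM, on a log axis, of the 19 genes with one of the 4 seeds, by seed, with circles for replicate 1 and squares for replicate 2; cluster members are red, other genes grey, and open triangles stand for 0 counts. In reads with a unique place, members lead the miR-17 and miR-18 seeds, while Mir92b at 6941 CPM leads the miR-92 seed.

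For 2 of the members the count is tied to a second gene. Multimapping reads are counted apart from the genes, and they made up 43.2% of all reads in replicate 1 and 39.3% in replicate 2. The full miR-19b-3p sequence lies in both Mir19b-1 and Mir19b-2, and the full miR-92a-3p sequence in both Mir92-1 and Mir92-2. The hairpins are shown, with the longest stretch that the copies share in capitals, because only reads that extend beyond it, or that come from the other arm, have a unique place among the microRNA genes.
Mir19b-1: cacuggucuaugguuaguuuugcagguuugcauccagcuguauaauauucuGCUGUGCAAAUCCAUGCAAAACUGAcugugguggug
Mir19b-2: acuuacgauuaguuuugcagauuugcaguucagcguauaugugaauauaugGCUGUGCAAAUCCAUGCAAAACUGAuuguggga
Mir92-1: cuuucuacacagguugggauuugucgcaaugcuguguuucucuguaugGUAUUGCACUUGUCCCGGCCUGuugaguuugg
Mir92-2: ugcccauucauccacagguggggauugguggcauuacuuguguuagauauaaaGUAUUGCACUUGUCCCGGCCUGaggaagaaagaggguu

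The shared stretch is 25 nt in the Mir19b pair and 22 nt in the Mir92 pair. The levels of Mir19b-1 and Mir92-1 thus cover only reads with a unique place, and their total levels, the total of mir-17-92 and the seed shares within it were not determined beyond such reads. The same holds for the ranks of both genes among the members and for all shares of the miR-19 and miR-92 seeds. In the reads that could be told apart, Mir92-1 had 1101 and 1615 CPM and Mir92-2 19.9 and 24.1 CPM in replicates 1 and 2. The main arms of the other 7 members lie in no other microRNA gene, and their hairpins share at most 17 nt with one. Mir19a is among these 7, its longest shared stretch being 13 nt, and the cause of its 1 and 2 counts was not tested.

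Detection, with at least 10 counts in each library, was reached by 7 of the 9 members, Mir19a and Mir19b-1 being the other 2, and by 19.5% of the 2202 genes. The 7 lay between 144 CPM (Mir25) and 5301 CPM (Mir93), all above the median of 87.8 CPM over the detected genes. For the difference between libraries, a two-sided exact binomial test on TMM-scaled library sizes was run on every detected gene, with Benjamini-Hochberg adjustment over all 429 detected genes at 0.05. This test compares 2 libraries and not conditions. It called 6 of the 7 members, against 61.3% of all detected genes, a background at which such a count says little about the members. Of the 7 tested members, 3 were called higher in replicate 1, against 32.6% of all detected genes, and 3 were called lower, against 28.7%.

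The sign of the ratio between the 2 libraries differed among genes of the same cluster. The p-values given here cover counting error only, so they do not show that the signs differ beyond the variation between replicates. On the log2 scale, replicate 1 over replicate 2 was 0.40 for Mir18 (exact binomial test, adjusted p = 2.45e-08) and 0.12 for Mir17 (adjusted p = 1.03e-13), while Mir92-1 stood at -0.49 (adjusted p = 6.96e-75) and Mir20a at -0.18 (adjusted p = 3.1e-07). In mir-106b-25, Mir93 stood at 0.07 (exact binomial test, adjusted p = 1.47e-06), Mir106b at -0.21 (adjusted p = 1.92e-15) and Mir25 at -0.10 (adjusted p = 0.299). With library totals in place of TMM factors Mir93 was no longer called, with an adjusted p of 0.738 in the exact binomial test and a log2 ratio of 0.01, and the 5 other calls kept their direction. The absolute log2 ratio had a median of 0.18 over the 7 members and 0.33 over all detected genes, and none of these 7 differed 2-fold. Mir19a and Mir19b-1 were not tested because of their low counts.

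**Figure D4:**
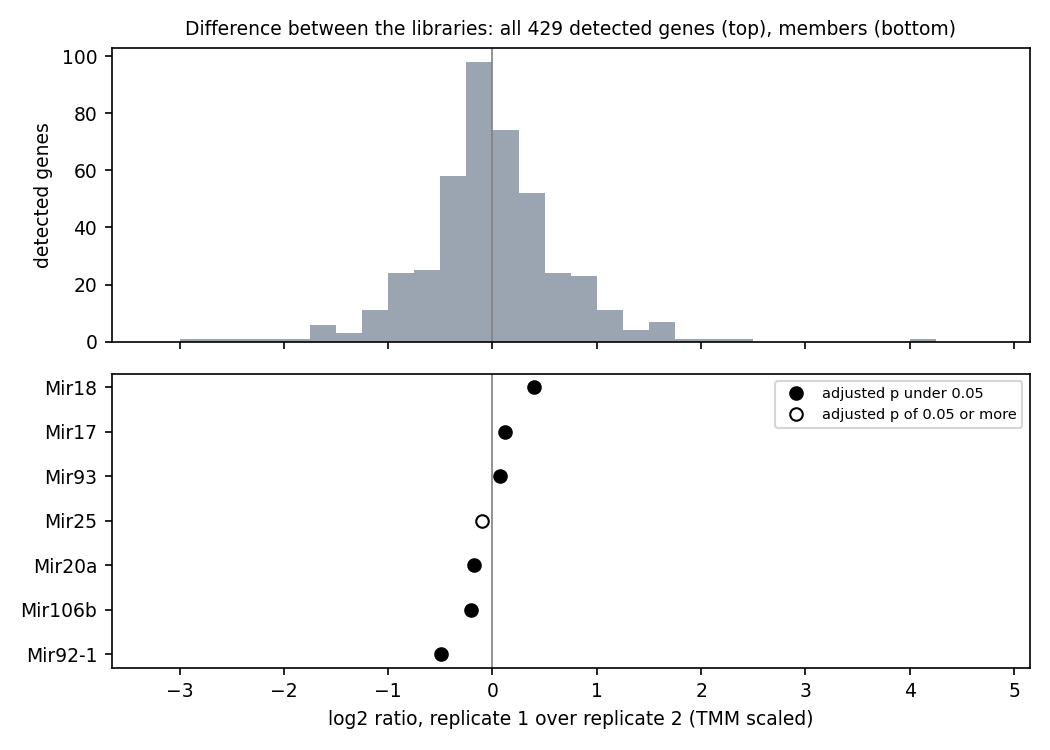
Log2 ratio of replicate 1 to replicate 2 after TMM scaling, as a histogram over the 429 detected genes (top) and for each detected member (bottom), filled where the exact binomial test gave an adjusted p under 0.05. Members lie between -0.49 (Mir92-1) and 0.40 (Mir18), and Mir25 is the open symbol.

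Uneven counts within a cluster of nearby microRNA genes were common in these libraries. When microRNA genes on 1 strand were joined across distances of up to 10 kb, they formed 19 clusters of 3 or more genes whose summed counts reached at least 10 in each library. Joining by position does not show that genes share a transcript. Multimapping reads are in no gene count, so every leading share covers reads with a unique place only. Among the 15 of these clusters with 3 to 6 genes, the most abundant gene held a median of 60.7% of its cluster's counts. The 15 include mir-17-92 and mir-106b-25 and clusters of very low level, such as those led by Mir302d at 4.53 CPM and Mir6546 at 3.56 CPM. Mir17 held 60.4% ± 5.00 of its cluster and Mir93 76.6% ± 2.32 (SD, n = 2), and 8 and 5 of the 15 clusters had a larger leading share than those of Mir17 and Mir93. In a cluster on chromosome 13, Mir23b held 90.7% ± 2.49, Mir27b 9.01% ± 2.43 and Mir24-1 0.323% ± 0.0563, and the value of Mir24-1 is uncertain because Mir24-2 is a near-identical copy. In the cluster on chromosome 17, the counts were more even, with Mirlet7e at 46.2% ± 11.9, Mir125a at 30.1% ± 2.04 and Mir99b at 23.7% ± 9.84 (SD, n = 2). By total level in reads with a unique place, mir-106b-25 ranked 6 and mir-17-92 ranked 8 among the 19 clusters. These ranks leave out multimapping reads and are not determined beyond the counted reads.

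**Figure D5:**
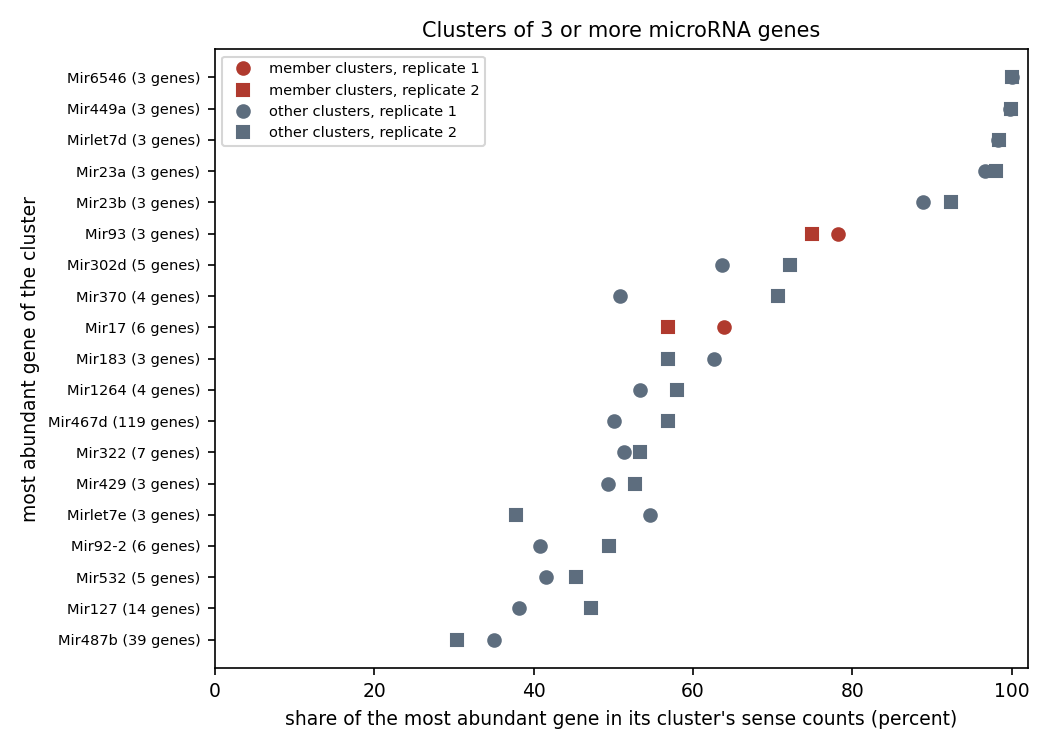
Share of the most abundant gene in its cluster's sense counts, in percent, for the 19 clusters of 3 or more microRNA genes, with circles for replicate 1 and squares for replicate 2 and the mir-17-92 and mir-106b-25 clusters in red. Mir93 lies at 78.2% and 75.0% and Mir17 at 63.9% and 56.9%, within the span of the other clusters.

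Genes outside the clusters with the most similar levels were found from the summed absolute difference in log2(CPM + 1) over the 2 libraries. For Mir17 they were Mir26b at 3818 ± 48.4 CPM, Mir378a at 3512 ± 342 CPM and Mir323 at 3782 ± 357 CPM, with summed differences of 0.12, 0.14 and 0.25. For Mir93 they were Mir330 at 5577 ± 632 CPM, Mir130a at 5684 ± 656 CPM and Mir221 at 4822 ± 853 CPM (SD, n = 2), with summed differences of 0.24, 0.24 and 0.37. With 2 libraries of 1 group this measure is mainly likeness in level.

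The labelled tissue was checked against marker microRNAs, in reads with a unique place. Whether the main arm of a marker also lies in another gene was not examined, so marker levels may leave out multimapping reads. The neuronal genes Mir132, Mir128-1, Mir138-1 and Mir137 stood at 8030 ± 685, 6638 ± 435, 5024 ± 1029 and 4273 ± 522 CPM (SD, n = 2). The endothelial Mir126a stood at 8144 ± 224 CPM, the sum of 2 choroid plexus and ependyma genes at 3358 ± 105 CPM and the sum of 2 oligodendrocyte genes at 1784 ± 340 CPM. Blood cells also make microRNAs of both clusters, and the sums of 3 erythroid and 2 myeloid genes were 59.9 ± 6.21 and 53.8 ± 10.8 CPM. Liver and skeletal muscle genes, Mir122 and Mir206, stood at 34.5 ± 0.309 and 68.6 ± 40.3 CPM. No host transcript was measured, so the levels of Mir17hg and Mcm7 are not known here, and the cell types that gave the counts of either cluster were not tested.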

How the data were processed

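Small RNA of 2 hippocampus libraries was sequenced. The authors deposited raw counts of reads for every microRNA gene, 1 file per library, with build mm10 and annotation GENCODE M21 per the deposited file notes; which aligner and counter made them is not given in the sources used here. The strand column with the larger gene total was used (sense counts). Rows without a gene were left out: of all reads in replicates 1 and 2, multimapping reads were 43.2% and 39.3%, unmapped reads 14.2% and 18.0% and reads outside the genes 6.16% and 5.17%. All 2202 identifiers matched GENCODE M21. The libraries, of 5479267 and 3563226 sense counts, were not copies of 1 library (chi-square of 396 per gene). The SD between them covers animals and library preparation together, while the binomial p covers counting error only.

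CPM, percents, exact Clopper-Pearson intervals at 95% and exact binomial tests were computed in Python 3.11.15 with scipy 1.17.1, with TMM factors from edgeR 4.0.16 (0.979 and 1.02) and, as an alternative, size factors from DESeq2 1.42.0. With 1 group there was no second condition for a quasi-likelihood test to contrast. Log2 ratios add 0.5 counts. The binomial test was also run on simulated counts that varied by counting error and planted differences only. Such counts lack the further variation between these libraries, so that run does not give the test's error rate here. Mature, hairpin and seed sequences came from the RefSeq table, and shared stretches from GENCODE M21 transcripts. Named genes are the 9 members, all genes with one of the 4 seeds, the 3 genes nearest in level to each leading member, listed comparison clusters and marker genes. Members, lists and rules were chosen with earlier results of these data known.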

Additional observations from a re-analysis of the deposited data

How the results depend on the processing

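Cluster shares moved by more than 1 SD with the denominator. The mir-17-92 share was 0.645% in counts without regard to strand, 0.569% in counts divided by gene length, 0.225% of all reads, 0.675% without the most abundant gene in the denominator and 0.472% without Mir19b-1 and Mir92-1. The mir-106b-25 share was 0.736%, 0.645%, 0.256% and 0.770% under the first 4 of these. The log2 ratio of mir-17-92 to mir-106b-25 was -0.56 without Mir19b-1 and Mir92-1, and reversed to 0.57 without Mir17 and Mir93. Per member it was -1.19, a shift set by the number of genes in each cluster alone. Without Mir19b-1 and Mir92-1 the miR-17 and miR-18 seed shares within mir-17-92 were 95.7% and 4.32%. Leaving out both genes removes their counts and does not restore multimapping reads, so it does not bear on that loss. The other recomputed values of these shares, ratios and counts stayed within 1 SD, or within 1.5 times for counts; leave-one-out values are those of the other library and, with 2 libraries, lie within 1 SD by construction, so they say nothing about stability. The number of members detected depended on the count minimum. It was 9 with at least 1 count in each library, against 7 with at least 10 and 7 with at least 100. Under every scaling, strand and count minimum tried, 5 or 6 members were called. Among single genes, the call of Mir93 was lost with library totals. No paired analysis between groups was possible because there is 1 group. At 1 to 6 counts a library, the values of Mir19a and Mir19b-1 are imprecise, and the cause of their low counts was not tested.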
